A study of Mus musculus with 8 samples.

Results

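The 35 genes described here encode the enzymes of glycolysis, the transporters that bring in glucose and pass lactate out, and further genes that the hypoxia-inducible factor HIF is known to switch on. They were taken from a fixed list by symbol, and all 35 were in the deposited table of 12339 genes. They filled 36 rows, because Aldoa had a second, scarcely read gene model under its own identifier. The data are RNA-seq of ribosome-bound RNA, obtained by RiboTag, in which the tagged ribosomes of 1 cell type are pulled down with the RNA they translate. The cell type was the Müller cell, the main glial cell of the retina. All 8 mouse retina libraries came from postnatal day 14 of oxygen-induced retinopathy (OIR), a model in which pups kept in high oxygen go back to room air and the inner retina is left short of oxygen. Wild-type mice (WT) gave 4 libraries, and mice that had lost Nrf2 in Müller cells by conditional knockout (cKO) gave another 4. Both sets carry the numbers 1, 3, 4 and 5. The labels name neither strain, sex, litter, Cre driver nor deleted exon, and leave unsaid whether 1 library stands for 1 animal. The p-values here measure only how these libraries scatter.

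Glycolysis turns glucose into pyruvate and, through lactate dehydrogenase, into lactate, and so makes ATP without oxygen. HIF is degraded when prolyl hydroxylases mark it in the presence of oxygen. In hypoxia it is spared, binds DNA at a short core sequence and raises most glycolytic genes, together with genes that spare oxygen in mitochondria. Müller cells have been proposed to take up much glucose and to hand lactate to photoreceptors, which are themselves strongly glycolytic. Nrf2 is a transcription factor of antioxidant and detoxification genes, and the comparison of cKO with WT asks which ribosome-bound RNAs differ without it.

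Values are FPKM, fragments scaled to transcript length and to the library, and differences are cKO minus WT of log2(FPKM + 0.5). Nfe2l2, the gene of Nrf2, was at 17.5, 18.8, 23.1 and 17.5 FPKM in WT 1, 3, 4 and 5 and at 12.7, 16.5, 14.8 and 10.4 in the cKO libraries of those numbers (two-sided exact permutation test over 70 assignments, p = 0.0286, the smallest it can give). All cKO values lay below all WT values, and RNA from exons that are not deleted is part of them. Xist, made from the inactive X of female cells, was at 25.01 to 72.1 FPKM in 6 libraries but at 0.0863 in cKO 4 and 0.00505 in cKO 5. Pairs 1 and 3 thus had Xist in both libraries. Müller markers summed to between 9231 and 15788 FPKM in WT and between 9804 and 13760 in cKO, with WT 4 highest. All 12 were above 0 in every library. Rod markers (12 of 12 measured) were also abundant, at 3732 to 5840 FPKM in WT and 3982 to 6050 in cKO, and RNA of other cells was thus part of the pulldown. In such bulk samples fewer cells of a type and less RNA per cell cannot be told apart.

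The promoters of 5 members are shown because their values carry the comparison. Hk2, Slc16a3, Bnip3 and Pgam1 had every cKO value above every WT value and passed the test with the replicate block described below, while Slc16a1 was lower in cKO in all 4 pairs. Each stretch runs from 250 bases before to 50 bases after a transcription start in RefSeq (build GRCm38.p6), 5′ to 3′ on the strand of the gene, with ACGTG and GCGTG, the core of the sequence HIF binds, in capitals on either strand (CACGT and CACGC are their reverse complements).
Hk2, chr6:82774405-82774704, minus strand: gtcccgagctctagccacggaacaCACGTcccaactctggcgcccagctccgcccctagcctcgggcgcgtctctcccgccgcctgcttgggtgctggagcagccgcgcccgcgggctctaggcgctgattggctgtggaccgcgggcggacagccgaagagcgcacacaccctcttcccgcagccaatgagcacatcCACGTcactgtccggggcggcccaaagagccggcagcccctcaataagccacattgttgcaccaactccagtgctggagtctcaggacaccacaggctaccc
Slc16a3, chr11:120948817-120949116, plus strand: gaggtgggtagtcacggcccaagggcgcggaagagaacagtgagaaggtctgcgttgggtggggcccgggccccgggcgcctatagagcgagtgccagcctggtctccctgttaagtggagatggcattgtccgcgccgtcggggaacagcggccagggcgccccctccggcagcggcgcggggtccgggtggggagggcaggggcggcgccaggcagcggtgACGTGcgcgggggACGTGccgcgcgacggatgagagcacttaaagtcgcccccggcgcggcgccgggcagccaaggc
Bnip3, chr7:138909457-138909756, minus strand: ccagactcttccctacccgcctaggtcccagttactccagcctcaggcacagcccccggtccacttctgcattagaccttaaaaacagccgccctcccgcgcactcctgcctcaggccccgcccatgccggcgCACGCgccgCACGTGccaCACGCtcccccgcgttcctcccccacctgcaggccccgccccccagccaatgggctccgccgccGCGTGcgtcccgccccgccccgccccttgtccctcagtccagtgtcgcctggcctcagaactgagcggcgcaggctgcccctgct
Pgam1, chr19:41911621-41911920, plus strand: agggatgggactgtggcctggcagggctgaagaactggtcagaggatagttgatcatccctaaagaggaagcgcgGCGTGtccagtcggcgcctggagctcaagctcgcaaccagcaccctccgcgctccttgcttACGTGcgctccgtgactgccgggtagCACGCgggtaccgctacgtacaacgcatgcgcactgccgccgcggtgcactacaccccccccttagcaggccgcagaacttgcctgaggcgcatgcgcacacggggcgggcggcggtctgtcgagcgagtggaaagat
Slc16a1, chr3:104638414-104638713, plus strand: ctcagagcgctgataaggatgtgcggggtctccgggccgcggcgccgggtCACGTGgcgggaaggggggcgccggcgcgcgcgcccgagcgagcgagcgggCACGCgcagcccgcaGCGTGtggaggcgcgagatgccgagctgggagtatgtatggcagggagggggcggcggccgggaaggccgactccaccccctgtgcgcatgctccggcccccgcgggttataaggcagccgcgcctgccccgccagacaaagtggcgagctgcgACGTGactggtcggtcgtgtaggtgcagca
Hk2 and Slc16a3 each had ACGTG at 2 positions, and Slc16a1, whose values went the other way, had it too. The Pgam1 stretch follows the RefSeq start and ends before the start of the gene in GENCODE. The palindrome CACGTG in Bnip3 and Slc16a1 holds ACGTG on both strands. RefSeq promoters were found for 31 of the 35 genes, and 11 of these had more than 1 start. ACGTG stood in at least 1 window of 21 of the 31 (67.7%), against 30.0% of 9387 genes of the deposited table with a promoter and 21.8% of 27025 RefSeq genes. GCGTG stood in 67.7% of members, 58.0% of genes of the table and 35.2% of RefSeq genes. A gene with several windows has more chances to match. Counted by window, GCGTG stood in 54.2% of 48 member windows and 51.6% of 12137 windows of genes of the table, and ACGTG in 52.1% and 25.5%. Of the 7 members that passed the test with the block, 6 had ACGTG in a window, as did 15 of the 24 others. Glycolytic genes are themselves known as HIF targets, so a high share is no independent result, and a match is not a binding site.

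Most members were somewhat higher in cKO, but few by more than the spread between libraries. In limma, fitted on the whole table with Benjamini-Hochberg adjustment over 12339 genes, 0 of 36 rows passed an adjusted p of 0.05 (0.00% of all genes passed), and their adjusted p ran from 0.291 to 0.967. At an unadjusted p under 0.05, 7 rows were higher (background 3.95% of all genes) and 0 lower (background 6.67%). Libraries with the same number deviated together, so the fit was repeated with the number as a block. With the block 7 rows rose (19.4%, background 2.99%) and 0 fell (background 7.59%), while at an unadjusted p under 0.05 the block gave 16 higher (background 12.4%) and 3 lower (background 16.0%). The 7 were Hk2, Slc16a3, Pgam1, Bnip3, Pdk1, Mxi1 and Higd1a. Hk2 passed in each of the 4 fits without 1 pair, as did 0.219% of all genes on the higher side. Leaving out pair 1, 3, 4 or 5 in turn left 1, 2, 5 and 3 members past the test, all of them higher. Of all 12339 genes, 402, 606, 524 and 821 passed in those fits, more of them lower than higher. Equal column sums with the block gave 4 members higher and 1 lower, and quantile normalization with the block 5 higher and 1 lower. The lower one was Slc16a1 each time. Of all genes, 1337 and 1064 passed in these fits, again more of them lower than higher.

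The median difference of the 36 rows was 0.18, against 0.00 for all genes, and 28 rows (77.8%) were above 0, against 50.7% of all genes. Quantile normalization brought the median of the rows to 0.10, with 26 above 0 and a median of 0.03 for all genes. Abundant genes as a whole moved the same way. The 760 genes with a mean of at least 100 FPKM, members included, had a median of 0.13 with 76.2% above 0, and the 21 member rows of that level had 0.16 with 81.0%. With the block 90 of those 760 genes rose (11.8%), compared with 2 of the 21 abundant member rows (9.52%) and 5 of the 15 less abundant ones (33.3%, against 2.41% of all 11579 genes under 100 FPKM). At an unadjusted p under 0.05 with the block, 290 of the 760 genes were higher and 69 lower. Of the 21 abundant member rows, 9 were higher and 0 lower at that p. The shift of the abundant members was therefore close to that of abundant genes at large, whose median under quantile normalization was 0.05.

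**Figure D1:**
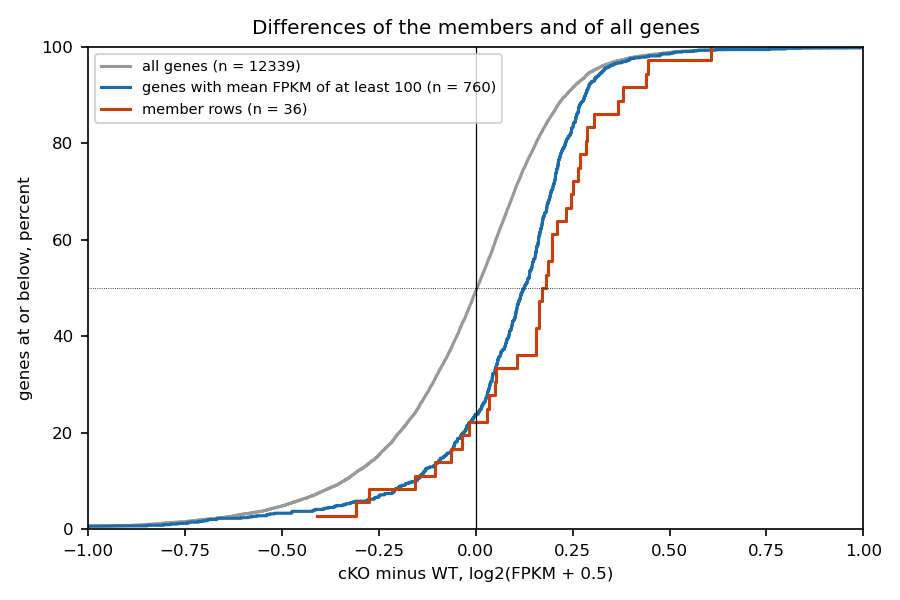
Cumulative share of genes (percent, y axis) by the difference cKO minus WT in log2(FPKM + 0.5) (x axis, drawn from −1 to 1) for 12339 genes, for the 760 genes with a mean of at least 100 FPKM and for the 36 member rows. The member curve crosses 50% at 0.18 and lies close to that of the abundant genes, at 0.13, while all genes cross at 0.00.

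The median member difference was above 0 in all 4 same-numbered pairs, to unequal extent. It was 0.21 in pair 1, 0.23 in pair 3, 0.06 in pair 4 and 0.11 in pair 5, with 31, 27, 21 and 25 of 36 rows above 0. Of all 12339 genes, 6376, 5762, 5883 and 6214 were above 0 in these pairs. For the 760 genes of at least 100 FPKM the medians were 0.22, 0.10, 0.09 and 0.06, with 623, 490, 523 and 469 above 0. In pairs 1 and 4 the member median was thus not above that of abundant genes. In pair 4 WT 4 stood out, being the highest WT library for 22 rows. It was also the WT library with the most Müller marker RNA. In all 4 pairs 16 rows were higher in cKO (44.4%, background 16.7%) and 3 were lower (8.33%, background 19.5%). Among genes of at least 100 FPKM 41.6% were higher in all 4 pairs, and among the member rows of that level 47.6%. The 3 were Slc16a1, Kdm3a and the second Aldoa model. Groups did not overlap in 6 rows with cKO above WT (background 2.06%) and in 0 rows with cKO below (background 2.28%). These 6 were Hk2, Slc16a3, Pgam1, Bnip3, Aldoa and Gpi1.

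**Figure D2:**
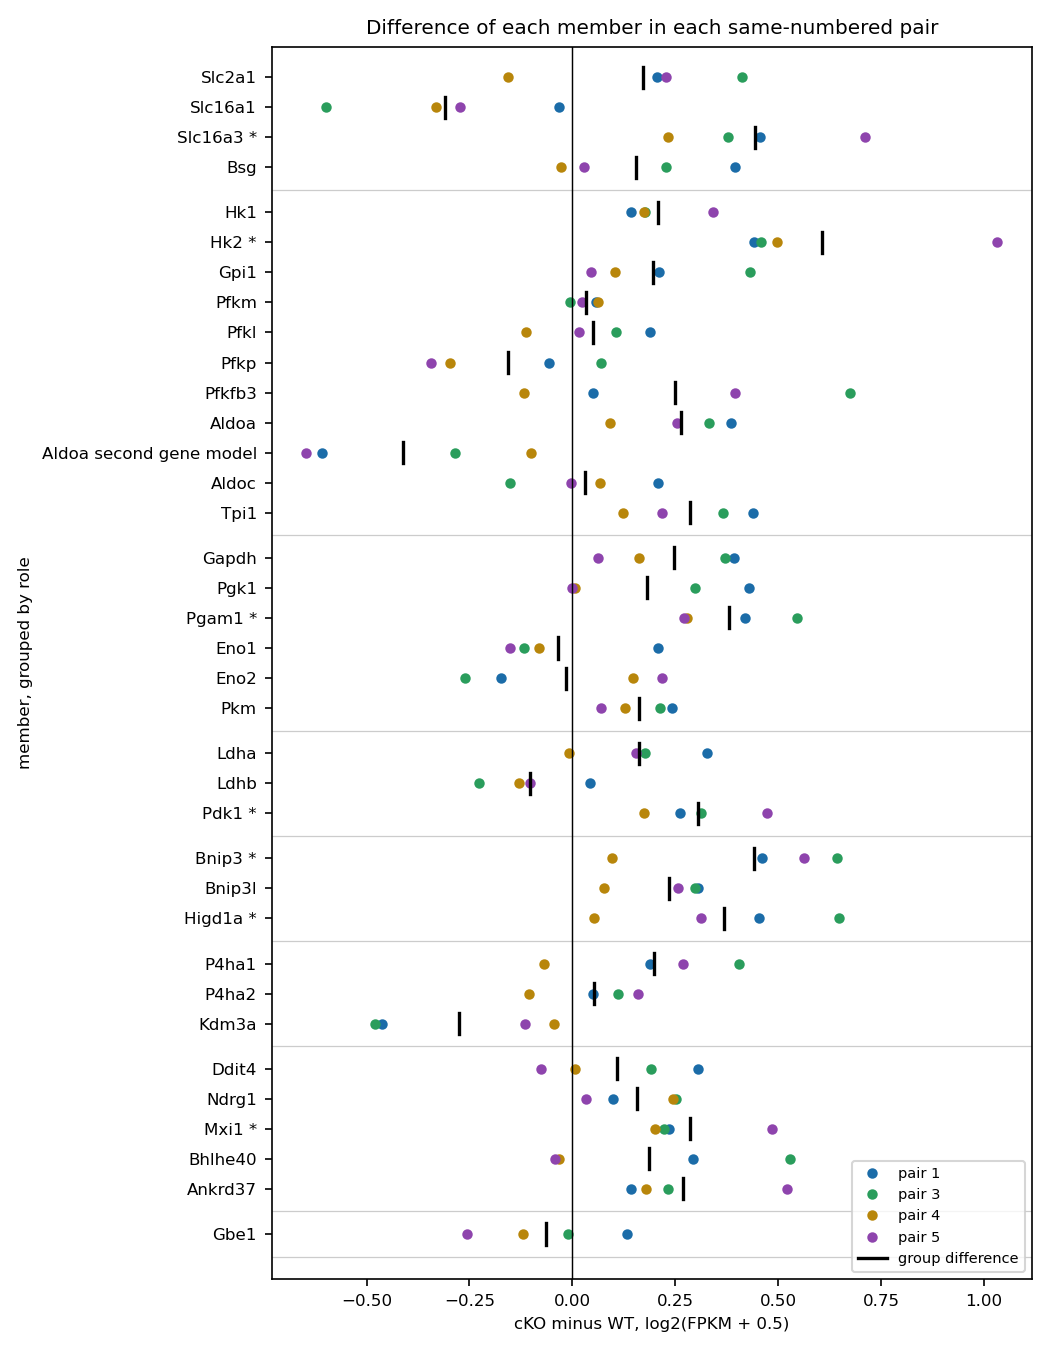
Difference cKO minus WT in log2(FPKM + 0.5) (x axis) of each of the 36 member rows (y axis, grouped by role), with 1 point per same-numbered pair and a bar at the group difference. Asterisks mark the 7 rows with an adjusted p under 0.05 in limma with the replicate block, whose points lie to the right of 0 in all 4 pairs.

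Among the genes of upper glycolysis, which take glucose to the triose phosphates, Hk2 rose and the other rows did not pass. Hexokinase traps glucose in the cell as glucose-6-phosphate, and Hk2 is its inducible form. Hk2 (ENSMUSG00000000628, GRCm38 chromosome 6, 82725025 to 82774454, minus strand) had levels of 18.3, 19.8, 18.0 and 15.1 FPKM in WT 1, 3, 4 and 5 and, in the same order, the cKO libraries had 25.02, 27.4, 25.7 and 31.5. All cKO values were above all WT values, and cKO 5 was highest while WT 5 was lowest. The difference was 0.61 (SE 0.11), or 52.3% higher, with an adjusted p in limma of 0.291 without the block and 0.0141 with it. Without 1 pair the adjusted p with the block was between 0.0214 and 0.0468. In the 6 libraries with Xist the difference was 0.55 (adjusted p = 1.0 in limma without the block).

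Hk1, the constitutive hexokinase, was on average 10.1 times as abundant in WT and 7.53 times in cKO. Its level was 178 ± 13.9 FPKM in WT (SD, n = 4) and 206 ± 26.7 in cKO (SD, n = 4; difference 0.21, adjusted p in limma with the block 0.0734). The groups overlapped, although each pair was higher in cKO. Hk1os, a transcript on the other strand of the locus, went from 2.29 ± 0.708 to 5.01 ± 1.23 FPKM (adjusted p in limma with the block 0.0181), and although the library kit keeps the strand, the strand setting of the counting is not given, so reads of the overlap cannot be assigned. As a share of Hk1 and Hk2 together, Hk2 made up 7.32% to 10.2% in WT and 11.0% to 12.5% in cKO, with no overlap. This share was chosen after the values were seen and is no separate support.

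Gpi1, which turns glucose-6-phosphate into fructose-6-phosphate, was at 536, 469, 598 and 592 FPKM in WT 1, 3, 4 and 5 and at 620, 632, 642 and 611 in cKO. The groups did not overlap, and the cKO values lay close together, but the difference of 0.20 did not pass (adjusted p in limma with the block 0.157). Aldoa, the muscle-type aldolase that splits fructose-1,6-bisphosphate, was at 1357, 1297, 1612 and 1463 FPKM across the WT libraries and at 1771, 1631, 1717 and 1744 in cKO. It too had no overlap, with a difference of 0.26 (adjusted p in limma with the block 0.0785). The second Aldoa model, just upstream on the same strand, was at 2.68 ± 1.07 FPKM on average in WT and 1.87 ± 0.735 in cKO, near the floor of the table, which held genes with a mean of about 2 FPKM or more.

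Tpi1, which interconverts the triose phosphates, went from 951 ± 123 FPKM in WT to 1154 ± 69.5 in cKO and overlapped only in that cKO 3 at 1058 lay below WT 4 at 1063 (0.29, adjusted p in limma with the block 0.0609). Aldoc, the brain-type aldolase, was at 454 ± 91.4 and 463 ± 98.4 FPKM, its groups overlapped widely, and its difference of 0.03 became −0.05 with quantile normalization. The phosphofructokinases, which commit sugar to glycolysis, did not move together. Pfkm was at 64.4 ± 4.38 and 66.0 ± 5.43 FPKM, Pfkl at 153 ± 13.5 and 158 ± 6.42, and Pfkp at 284 ± 29.7 and 258 ± 55.9 (adjusted p in limma with the block 0.730, 0.678 and 0.257). The sign of Pfkl turned with quantile normalization (−0.04) and that of Pfkp with the length and GC correction (0.01). Pfkp made up 53.1% to 60.8% of their sum in WT and 46.8% to 60.7% in cKO, lower within every pair but almost equal in pair 3 (60.8% and 60.7%). Pfkfb3, which makes the activator fructose-2,6-bisphosphate, ranged from 10.4 to 14.5 FPKM in WT and from 13.2 to 21.5 in cKO, with cKO 3 highest (adjusted p in limma with the block 0.244).

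In lower glycolysis, from glyceraldehyde-3-phosphate to pyruvate, Pgam1 rose and the other 5 genes did not pass. Pgam1, which moves the phosphate of phosphoglycerate (ENSMUSG00000011752, GRCm38 chromosome 19, 41911923 to 41918660), was at 96.5, 75.9, 94.6 and 110.6 FPKM in WT 1, 3, 4 and 5 and at 129, 111, 115 and 133 in cKO. The lowest cKO value, 111.1 in cKO 3, barely cleared the highest WT value, 110.6 in WT 5. The difference was 0.38 (SE 0.12; adjusted p in limma 0.453, and 0.0146 with the block). It did not pass without pair 1 (0.0616) or pair 3 (0.0585).

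Gapdh, the oxidising step, was at 1178, 1050.5, 1437 and 1474 FPKM in the WT libraries and at 1546, 1358, 1607 and 1538 in cKO (0.25, adjusted p in limma with the block 0.108). Each pair was higher in cKO, but WT 4 and WT 5 lay above cKO 3. Pgk1, which makes the first ATP of the pathway and lies on the X chromosome, was higher by 0.43 and 0.30 in pairs 1 and 3 and by 0.007 and −0.002 in pairs 4 and 5. Pkm, pyruvate kinase, was higher in all 4 pairs by 0.07 to 0.24 and did not pass (adjusted p in limma with the block 0.188). Eno1, the general enolase, was at 1223 ± 197 and 1191 ± 166 FPKM, and Eno2, the enolase of neurons, at 106 ± 20.7 and 103 ± 3.73, and neither differed beyond the spread (adjusted p in limma with the block 0.818 and 0.925). Gapdh, Pgk1, Pgam1, Eno1, Tpi1, Pkm and Ldha are known for near-identical processed pseudogenes, and how reads with several matches were counted is not given, so their levels are uncertain.

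Seen by step, the RNA of glycolysis was far from even. Summed over the genes of a step, WT levels ran from 94.4 ± 14.2 FPKM for phosphoglycerate mutase, 196 ± 13.0 for hexokinase and 233 ± 35.2 for phosphoglycerate kinase up to 1886 ± 222 for aldolase. Hexokinase and phosphoglycerate kinase were neighbours in this order, and their ranges in WT, 177 to 207 and 202 to 275 FPKM, overlapped. Enolase, lactate dehydrogenase, glyceraldehyde-3-phosphate dehydrogenase and pyruvate kinase, had WT means between 1186 and 1329 FPKM and ranges that overlapped. Of the 11 steps, lactate dehydrogenase included, 9 had a higher mean in cKO, 7 were higher in all 4 pairs, and 2 had no overlap between the groups. Of all single genes, 50.7% had a difference above 0, 16.7% were higher in all 4 pairs and 2.06% had cKO above WT without overlap. Among single genes of at least 100 FPKM, 76.2% had a difference above 0 and 41.6% were higher in all 4 pairs. Phosphofructokinase (−0.06) and enolase (−0.04) were the steps without a higher mean.

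**Figure D3:**
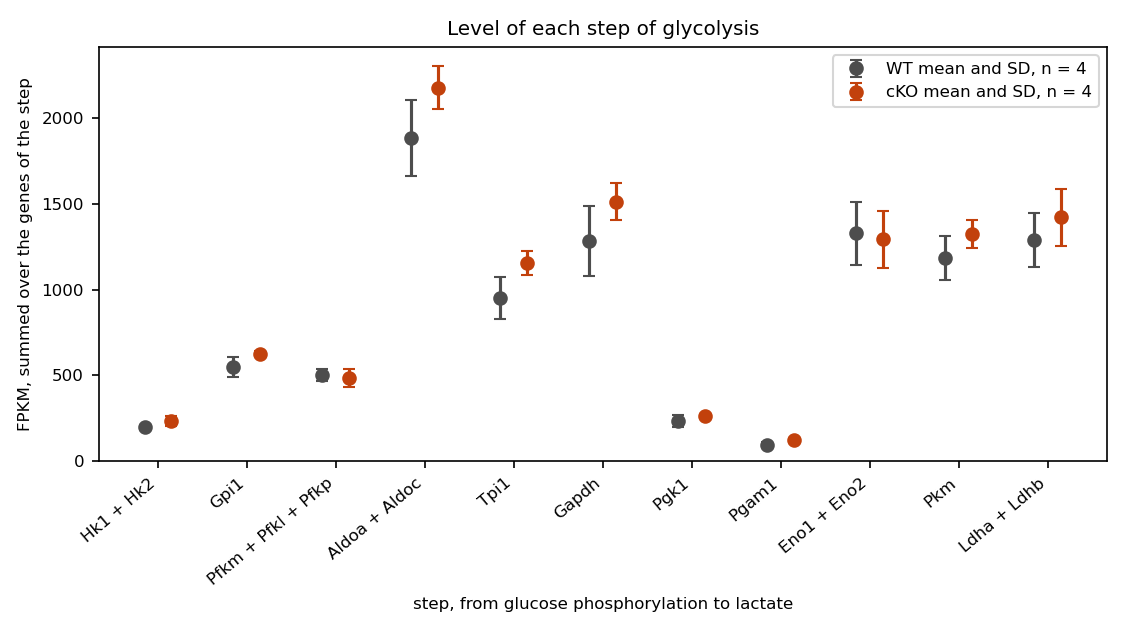
Summed FPKM (y axis, from 0) of the member genes of each of the 11 steps from hexokinase to lactate dehydrogenase (x axis), as mean and SD of 4 WT and 4 cKO libraries. Phosphoglycerate mutase (94.4 FPKM in WT and 122 in cKO) is lowest and aldolase (1886 and 2179) highest in both groups.

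At the branch of pyruvate, Pdk1 rose and the lactate dehydrogenases did not pass. Pdk1, a classic HIF target, is a kinase that holds pyruvate back from oxidation in mitochondria. It was at 27.5, 24.3, 23.9 and 31.0 FPKM in WT 1, 3, 4 and 5 and at 33.0, 30.3, 27.1 and 43.2 in cKO. The groups overlapped across pairs, and each cKO library was above the WT library of its number (0.31, SE 0.15; adjusted p in limma 0.480, and 0.0354 with the block). It passed in none of the 4 fits without 1 pair (adjusted p 0.0694 to 0.106), nor with equal column sums and the block (0.0514). Ldha, whose subunit favours lactate, was at 1177 ± 143 and 1317 ± 162 FPKM (adjusted p in limma with the block 0.231). Ldhb, whose subunit favours pyruvate, was at 114 ± 20.0 and 106 ± 17.1 (adjusted p 0.334 likewise). Ldhb made up 7.54% to 9.96% of their sum in WT and 6.27% to 9.23% in cKO, and its share was lower in cKO in all 4 pairs.

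Of the transporters, Slc16a3 rose, and Slc16a1 went the other way. Slc16a3 is a monocarboxylate carrier suited to lactate export and induced by hypoxia (ENSMUSG00000025161, GRCm38 chromosome 11, 120948480 to 120960868). It was at 60.2, 63.1, 68.0 and 66.7 FPKM in WT 1, 3, 4 and 5 and at 82.7, 82.1, 79.97 and 109 in cKO. The groups were well apart, and cKO 5 stood above the other cKO libraries. The difference was 0.44 (SE 0.11; adjusted p in limma 0.450, and 0.0171 with the block), and it passed in 3 of the 4 fits without 1 pair, not without pair 1 (0.0692). Slc16a1, the carrier that serves uptake or export with either gradient, was at 93.6, 98.5, 137 and 97.0 FPKM across the WT libraries and at 91.5, 64.8, 109 and 80.2 in cKO. WT 4 was far above the other WT libraries, and cKO 4 lay above 3 WT values. The difference was −0.31 (SE 0.17; adjusted p in limma with the block 0.0700). With the block it passed with equal column sums (0.0321) and quantile normalization (0.0368) but not with the length and GC correction (0.111) or without any 1 pair (0.0554 to 0.203).

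Slc16a3 made up 33.1% to 40.7% of the 2 carriers in WT and 42.3% to 57.7% in cKO, with no overlap, and this ratio does not depend on a library's scaling factor. It was chosen after the 2 genes were seen to go opposite ways, so it is no separate support. Slc2a1, the main glucose transporter of glia and endothelium, was at 215, 222, 338 and 215 FPKM in the WT libraries and at 248, 295, 303 and 252 in cKO. WT 4 exceeded every cKO library, while the other WT libraries lay below all cKO libraries (0.17, adjusted p in limma with the block 0.265). Without WT 4 the difference was 0.33. Bsg, the chaperone of the lactate carriers, had the highest mean of all members in both groups, with 1598 ± 367 FPKM in WT and 1761 ± 246 in cKO, though Aldoa, the next in this order, lay within that spread. For Bsg too WT 4 was the highest library (2140.0 FPKM).

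**Figure D4:**
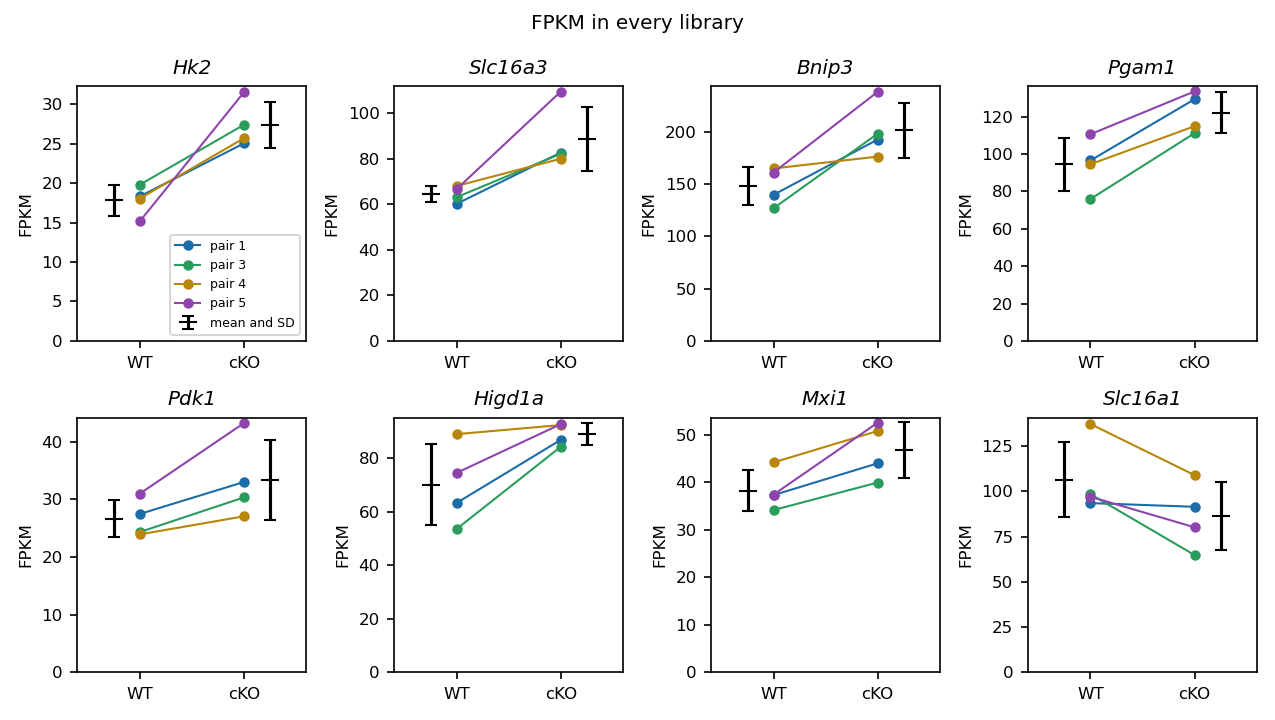
FPKM (y axes, from 0) in every WT and cKO library of the 7 members that rose with the replicate block and of Slc16a1, with lines joining the same-numbered pairs and mean and SD (n = 4) beside them. Hk2 shows WT values of 15.1 to 19.8 below cKO values of 25.02 to 31.5, and Slc16a1 slopes downward in all 4 pairs.

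**Figure D5:**
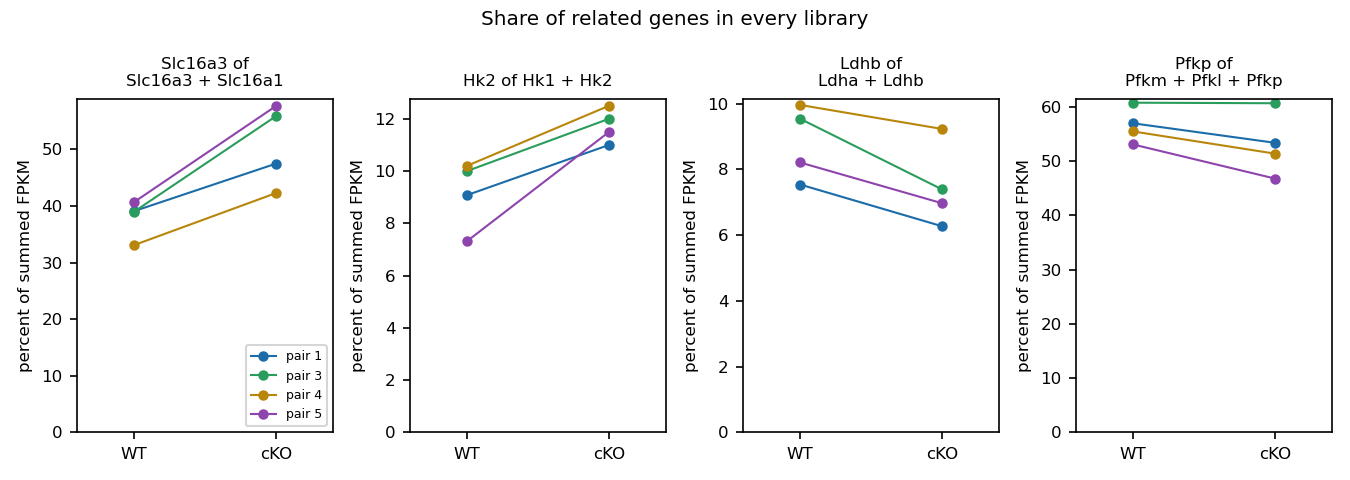
Share (percent of summed FPKM, y axes from 0) of Slc16a3, Hk2, Ldhb and Pfkp among their related genes in every library, with lines joining the same-numbered pairs. The groups are apart for Slc16a3 (at most 40.7% in WT, at least 42.3% in cKO) and Hk2 (at most 10.2% and at least 11.0%) and overlap for Ldhb and Pfkp. The shares were chosen after the values were seen.

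Of the 3 mitochondrial HIF targets, Bnip3 and Higd1a rose with the block and Bnip3l did not pass. All 3 were higher in all 4 pairs, as were 16.7% of all genes and 41.6% of those with at least 100 FPKM. Bnip3, which tags mitochondria for removal (ENSMUSG00000078566, GRCm38 chromosome 7, 138890836 to 138909519, minus strand), had levels of 140, 127, 165 and 161 FPKM in WT 1, 3, 4 and 5, against 192, 198, 176 and 238 in the cKO libraries. No values overlapped, and pair 4 was closest. The difference was 0.44 (SE 0.13; adjusted p in limma 0.453, and 0.0258 with the block). It passed without pair 4 (0.0189) but not without pairs 1, 3 or 5 (0.0825 to 0.0947), nor with quantile normalization and the block (0.0541) or the length and GC correction and the block (0.0565).

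Higd1a, a small inner membrane protein that helps respiration in low oxygen, was at 63.3, 53.6, 89.0 and 74.5 FPKM across the WT libraries and at 86.9, 84.3, 92.4 and 92.7 in cKO. WT 4 fell among the cKO values, and the other WT libraries lay below them (0.37, adjusted p in limma with the block 0.0475). It passed without pair 4 (0.0364) but not without pairs 1, 3 or 5 (0.0976 to 0.159). With the block it also did not pass under equal column sums (0.0555), quantile normalization (0.0858) or the length and GC correction (0.0686). Bnip3l, a close relative of Bnip3, was at 92.8 ± 11.5 and 109 ± 10.2 FPKM (0.23, adjusted p in limma with the block 0.0574).

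Among the regulators, Mxi1 rose and the other 4 did not pass. All 5 had a difference above 0, as did 50.7% of all genes and 76.2% of those with at least 100 FPKM. Mxi1, an antagonist of Myc, was at 37.3, 34.2, 44.2 and 37.4 FPKM in WT 1, 3, 4 and 5 and at 44.0, 39.96, 50.8 and 52.5 in cKO. WT 4 lay above cKO 1 and cKO 3, but each pair was higher in cKO (0.29, SE 0.12; adjusted p in limma 0.469, and 0.0419 with the block). It passed in none of the 4 fits without 1 pair (0.0954 to 0.108), nor with equal column sums and the block (0.0611), and in the 6 libraries with Xist the difference was 0.14. Ankrd37, an ankyrin protein strongly induced by HIF, was at 42.5 ± 5.57 and 51.0 ± 3.72 FPKM and higher in all 4 pairs (0.27, adjusted p in limma with the block 0.0681). Ndrg1, a stress gene of hypoxia, was higher in all pairs by 0.03 to 0.25 (adjusted p in limma with the block 0.158).

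Ddit4, an inhibitor of mTOR, and Bhlhe40, a transcriptional repressor, were higher in pairs 1 and 3 and near 0 or lower in pair 5 (0.11 and 0.19, adjusted p in limma with the block 0.400 and 0.278). P4ha1 and P4ha2, catalytic subunits of collagen prolyl hydroxylase, differed by 0.20 and 0.05, both lower in pair 4. Kdm3a, a histone demethylase induced by HIF, was at 43.6, 54.0, 29.7 and 30.1 FPKM in the WT libraries and at 31.5, 38.6, 28.8 and 27.7 in cKO. It was lower in each pair, most in pairs 1 and 3 (−0.28, adjusted p in limma with the block 0.0956). Gbe1, the glycogen branching enzyme, was at 67.9 ± 13.5 and 64.9 ± 12.1 FPKM, with WT 4 highest at 87.9.

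The other genes of these pathways were counted in 5 fixed lists. Of 38 measured further HIF targets 0 passed in limma without the block. At an unadjusted p under 0.05 in that fit 5 were higher (background 3.95%) and 3 lower (background 6.67%). With the block 4 rose (10.5%, background 2.99%) and 3 fell (7.89%, background 7.59%). The median difference of the 38 was 0.14. Those that rose were Egln1 (0.42, adjusted p = 0.0141), Hilpda (0.48, adjusted p = 0.0262), Fam162a (0.48, adjusted p = 0.0218) and Cited2 (0.28, adjusted p = 0.0423). In the limma fits with the block and without 1 pair, Cited2 never passed (adjusted p 0.0681 to 0.154). Hilpda passed only without pair 1 (0.028), Fam162a only without pair 4 (0.0214), and Egln1 only without pair 4 (0.0226) or 5 (0.0495). Egln1 is the oxygen-sensing hydroxylase that marks HIF, Hilpda protects lipid droplets, and Cited2 competes with HIF for a coactivator. Those that fell were Wsb1 (−0.84, adjusted p = 0.00783), Ppfia4 (−0.73, adjusted p = 0.0124) and Tfrc, the transferrin receptor (−0.35, adjusted p = 0.0209). Wsb1 passed in each fit without 1 pair, Ppfia4 only without pair 3 (0.0262) or 5 (0.0352), and Tfrc only without pair 5 (0.0306). Vegfa was at 221 ± 33.7 and 207 ± 36.8 FPKM and Adm at 20.2 ± 8.64 and 28.5 ± 8.63, and neither passed (adjusted p in limma with the block 0.407 and 0.164). Among 9 HIF subunits and oxygen sensors, Egln1 alone passed with the block. Hif1a was at 140 ± 12.5 and 131 ± 12.4 FPKM and Epas1 at 55.7 ± 9.86 and 54.1 ± 7.19. Egln3, a further HIF hydroxylase and target, was at 8.59 ± 2.71 and 14.2 ± 5.58 (adjusted p in limma with the block 0.103).

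Of 13 further glycolysis genes, 1 rose (7.69%, background 2.99%) and 2 fell (15.4%, background 7.59%) with the block (median −0.04). Pgm2, a phosphoglucomutase, rose by 0.32 (adjusted p in limma with the block 0.0271) but passed in no fit without 1 pair (0.057 to 0.0963). Eno3, the muscle enolase, went from 19.0 ± 4.86 to 9.97 ± 3.78 FPKM (−0.93, adjusted p in limma with the block 0.00344). Pfkfb2, a relative of Pfkfb3, went from 51.6 ± 21.1 to 31.1 ± 13.5 (−0.72, adjusted p in limma with the block 0.00301), and both passed in each fit without 1 pair. Slc2a3, the glucose transporter of neurons, differed by 0.25 (0.173 likewise). Of 12 genes of pyruvate oxidation 0 passed with the block (3 higher and 1 lower at an unadjusted p under 0.05, where 12.4% and 16.0% of all genes stood, median 0.07), and the differences of the 4 with the smallest p without the block were 0.27 for Pdk3, 0.23 for Mpc1, −0.39 for Pdpr and 0.16 for Pdp1. Of 16 genes of glycogen metabolism 0 passed with the block (1 higher and 4 lower at an unadjusted p under 0.05, against the same background, median −0.05). Among those with the smallest p without the block were Phka1 (−0.46), Phkg2 (−0.23) and Epm2a (0.25).

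Some markers of Müller cells and of other retinal cells passed with the block, and 0 of any list passed without it. The part of marker RNA in the results above was not tested. With the block 2.99% of all genes rose and 7.59% fell, the background for each list here. Of the 12 Müller markers 2 fell and 0 rose with the block (median difference −0.12), and of the 12 rod markers 1 rose and 0 fell (median 0.06). Bipolar markers (9 of 9 measured) summed to between 2154 and 2760 FPKM in WT and between 2660 and 3379 in cKO, and 4 rose with the block. Markers of amacrine, horizontal and ganglion cells (10 of 13 measured) summed to between 252 and 290.4 FPKM in WT and between 194 and 244 in cKO, with no overlap, and 4 fell. Cone markers (8 of 9) summed to 92.4 to 124 and 103 to 119 FPKM, with 1 risen and 4 fallen. Astrocyte markers (5 of 6, with Gfap but not Pax2) summed to 184 to 403 FPKM in WT and 327 to 497 in cKO, and 2 rose. Vascular markers (3 of 10) summed to 170.0 to 244 and 181 to 223 FPKM, and 1 rose, with Pecam1, Cdh5 and Cldn5 among those not in the table. None of 8 microglial markers was in the table. Of 6 pigment epithelium and 4 red blood cell markers, 1 of each list was, at no more than 5.58 and 3.59 FPKM.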

How the data were processed

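Ribosome-bound RNA of 4 WT and 4 cKO libraries was analysed from 1 table. The authors deposited FPKM per gene and library. Per the submitters' processing notes, STAR, edgeR, GRCm38 and mm10 were used, with no version or role, and the counting tool, annotation, strand setting and gene filter are not given in the sources used here. Fragment numbers are not given, so the depth behind a value is unknown and no counting interval was computed. FPKM summed to between 410581 and 448130 per library.

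From the table, log2(FPKM + 0.5) was fitted with limma 3.58.1 in R 4.3.3 (eBayes with a trend, two-sided, Benjamini-Hochberg over 12339 genes, threshold 0.05), and again with the replicate number as a block. After removal of group means, same-numbered WT and cKO libraries correlated across genes at r = 0.261 to 0.591 and others at −0.479 to 0.211, so the numbers were taken to pair the libraries, a link that comes from the data and not from the labels. Within groups the libraries correlated at 0.959 to 0.98 across genes and were not duplicates. Members, lists and tests were chosen with earlier results of these data known. All measured members are named, with up to 4 genes of the smallest p from each further list and all that passed with the block; 1 gene that this rule names is not reported here. Shares between related genes were chosen after the values were seen. Positions are from GENCODE mouse release 21 (12327 of 12339 identifiers found), promoters from RefSeq. The fits were tested on simulated data built with the replicate block, so that run cannot show whether the pairing is real. Other settings are in the closing section.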

Additional observations from a re-analysis of the deposited data

Results flagged for a closer look

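In 72 groups of 4 values (36 rows in WT and in cKO), 5 had 1 library far from the other 3, where about 1 in 20 such groups is expected by chance alone. WT 4 was the high library in 3 of them. It had Slc2a1 at 338 FPKM against 215 to 222 in the other WT libraries, Slc16a1 at 137 against 93.6 to 98.5, and Gbe1 at 87.9 against 58.8 to 63.2. In cKO 5, Slc16a3 was at 109 FPKM against 79.97 to 82.7. In cKO 3, P4ha2 was at 12.7 FPKM against 10.1 to 10.2.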

How the results depend on the processing

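The replicate block decided the calls. Without it limma called 0 of 12339 genes, 0 members and 0 genes of the other pathway lists, and with it 1305, 7 and 10. With the block and 1 pair left out, 402, 606, 524 and 821 genes passed without pairs 1, 3, 4 and 5, with 1, 2, 5 and 3 members and 4, 4, 5 and 6 listed genes. With the block, the length and GC correction gave 964 genes, 6 members and 11 listed genes. Further fits with the block were chosen after seeing the data. Median-of-ratios scaling gave 1300, 7 and 10, quantile normalization 1064, 6 and 8, equal column sums 1337, 5 and 10, a pseudocount of 1 gave 1320, 7 and 10, and a minimum mean of 5 FPKM gave 1276, 7 and 10. Without the block, library weights, an Xist covariate and the 6 libraries with Xist (the last chosen after seeing the data) called 1 gene each and 0 members. Nfe2l2 passed with the block (−0.50), also with the length and GC correction (−0.528), median-of-ratios scaling (−0.50), quantile normalization (−0.46), equal column sums (−0.54), a pseudocount of 1 (−0.48), a minimum of 5 FPKM (−0.50) and without pair 3 (−0.60). With the block it did not pass without pair 1 (adjusted p in limma 0.0785), pair 4 (0.0846) or pair 5 (0.0634). Nor did Nfe2l2 pass in the fit without the block (0.453).

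The median difference of the members stayed above 0 in every setting run (0.10 to 0.25). No member that rose changed sign in any of them. Pfkm became −0.083 with the Xist covariate and −0.0563 in the libraries with Xist, and ranged from −0.0054 to 0.0863 with 1 library left out. Pfkl became −0.0411 with quantile normalization, with or without the block. Pfkp became 0.114 with the Xist covariate, 0.0613 in the libraries with Xist and 0.0123 with the length and GC correction, with or without the block. The second Aldoa model became 0.0741 with the Xist covariate. Aldoc became −0.0032 with equal column sums and −0.0545 with quantile normalization, with or without the block, −0.193 with the Xist covariate and −0.159 in the libraries with Xist. With 1 library left out it ranged from −0.107 to 0.154, and it was −0.0298 with the block without pair 1. Eno1 became 0.0665 with library weights, ranged from −0.123 to 0.0673 with 1 library left out, and was 0.0032 with the block without pair 5. Eno2 became 0.0722 with the Xist covariate and 0.0222 in the libraries with Xist. It ranged from −0.119 to 0.0791 with 1 library left out, and was 0.0354 and 0.0645 with the block without pairs 1 and 3. With 1 library left out Ldhb ranged from −0.2006 to 0.0018 and P4ha2 from −0.0246 to 0.112. Gbe1 became 0.0119 with library weights, ranged from −0.174 to 0.0669 with 1 library left out, and was 0.0014 with the block without pair 5. The cause of these changes was not tested.

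With 4 libraries a group and unknown depth, small differences of abundant genes cannot be resolved, and genes under a mean of about 2 FPKM are not in the table. Equal numbers link the libraries only through the values themselves.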
